A study of Homo sapiens with 3 samples.

Results

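The genes described here make the core proteins of the spliceosome, the SR proteins and the hnRNP proteins. They were chosen by symbol, as protein-coding genes whose platform symbol starts with HNRNP, SRSF, SF3A, SF3B, SNRP or PRPF. The rule used no signal value, but it was set with earlier results of these data known. Of 19775 genes with a probe set listed for 1 gene on the array, 61 were members, read by 175 of 41091 such probe sets. Another 25 probe sets that list a matching gene together with other genes were not named, and 3 probe sets of a pseudogene and of noncoding divergent transcripts were left out.

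THP-1, an established human leukemia line of monocytic cells, differentiates into macrophage-like cells under phorbol myristate acetate (PMA), an activator of protein kinase C. Total RNA was hybridised to 3 arrays, 1 for each condition. The undifferentiated cells had no PMA. The culture labelled PMA 3 days had 200 nM PMA for 24 h followed by 3 days without it, and the culture labelled PMA 8 days had 200 nM PMA for 72 h followed by 5 days without it. Both then spent 16 h in 2% serum, and whether the undifferentiated cells did so is not stated. Time in PMA, time since PMA and time in culture cannot be told apart, and with 1 array per condition no test, standard error or p-value could be computed.

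Splicing removes introns in the nucleus. Small nuclear ribonucleoproteins (snRNPs) carry it out: U1 recognises the start of the intron, U2 its branch point, and the tri-snRNP of U4, U6 and U5 joins before catalysis. SR proteins bind exons and mostly favour their inclusion, while hnRNP proteins coat nascent RNA and often oppose them. Nearly all cells express these genes, and many SR and hnRNP genes limit their own level by making transcripts that are spliced into decay-prone forms.

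On these arrays the splicing genes were lower in both PMA cultures by a small and widely shared amount. Of 59 members with a signal above the floor of 149.8 units (the median of all values) on at least 1 array compared, 54 had a log2 ratio below 0 in PMA 3 days over undifferentiated, against a background of 57.5% of all genes tested; the other 5 lay above 0, against 42.4%. Their median log2 ratio was -0.50, a signal at 70.9% of the undifferentiated one, while the median of all genes was -0.12. In PMA 8 days over undifferentiated, 53 of 59 lay below 0 against 54.9% of all genes, and 6 above it against 45.1%, with a median of -0.42 against -0.07 for all genes. Members lower by 2-fold were about as common as among all genes, and members higher by 2-fold were absent. There were 7 members (11.9%) lower by at least 2-fold at PMA 3 days, where the background was 10.7%, and 4 (6.78%) at PMA 8 days, where it was 8.49%. No member was higher by 2-fold in either comparison, for which the backgrounds were 10.4% and 9.83%. At 1.5-fold, 24 members were lower at PMA 3 days, 40.7% of those measured against 23.8% of all genes, and 15 at PMA 8 days, 25.4% against 20.1%. Higher by 1.5-fold were 0 members at PMA 3 days and 1 at PMA 8 days, where the backgrounds were 17.9% and 17.6%. Both comparisons use the same undifferentiated array, so any error in it enters both.

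**Figure D1:**
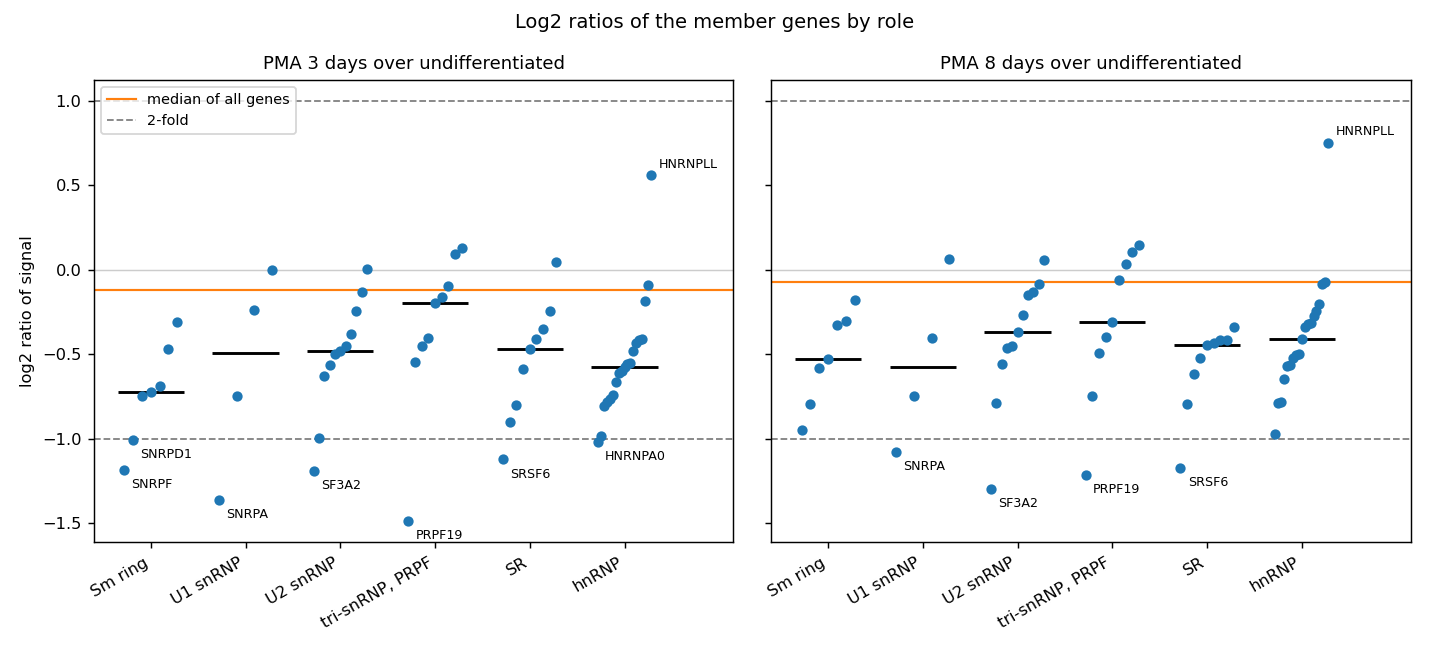
Log2 ratio of signal (vertical axis) for each measured member gene (point) by its role (horizontal axis), in PMA 3 days over undifferentiated (left) and PMA 8 days over undifferentiated (right). Black bars are group medians, the orange line is the median of all genes (-0.12 and -0.07) and dashed lines mark 2-fold. Most points lie below the orange line, and HNRNPLL is the highest point in both panels.

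The only repeated measure of a gene here is a second probe set. Probe sets of the same gene differed with a pooled SD of 0.43 log2 units at PMA 3 days against undifferentiated cells, 0.44 at PMA 8 days against them and 0.27 between the PMA cultures, over 5180 genes with several probe sets above the floor on all arrays. Among 39 members it was 0.43, 0.42 and 0.25. Differences between cultures or labelling reactions are not part of this SD. A single member at the median ratio therefore lies about as far from 0 as its probe sets lie from each other, and what is described is the shared direction. Fewer transcripts per cell and a smaller share of total RNA cannot be told apart in these bulk samples.

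The upstream DNA of 4 members is shown because they are the extremes of the list at PMA 3 days among genes measured on both arrays: HNRNPLL had the highest ratio, and PRPF19, SNRPA and SF3A2 had the lowest. Each sequence is the 250 bases before the RefSeq gene start in GRCh38.p14, 5′ to 3′ on the gene's strand: chr2:38602929-38603178 (minus strand), chr11:60906586-60906835 (minus strand), chr19:40750953-40751202 (plus strand) and chr19:2236574-2236823 (plus strand). Capitals mark matches on either strand to CCGGAA, the core bound by ETS factors, or to CCAAT, the box bound by NF-Y.
HNRNPLL: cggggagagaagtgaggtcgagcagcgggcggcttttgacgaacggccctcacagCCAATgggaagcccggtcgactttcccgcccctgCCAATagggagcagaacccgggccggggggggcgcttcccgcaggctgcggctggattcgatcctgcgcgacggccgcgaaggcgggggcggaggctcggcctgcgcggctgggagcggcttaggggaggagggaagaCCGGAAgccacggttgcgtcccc
PRPF19: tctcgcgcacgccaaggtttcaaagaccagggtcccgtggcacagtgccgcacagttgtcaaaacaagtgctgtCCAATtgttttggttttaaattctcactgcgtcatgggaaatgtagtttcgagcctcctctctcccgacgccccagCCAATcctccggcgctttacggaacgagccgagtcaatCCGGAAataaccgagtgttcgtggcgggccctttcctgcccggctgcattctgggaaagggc
SNRPA: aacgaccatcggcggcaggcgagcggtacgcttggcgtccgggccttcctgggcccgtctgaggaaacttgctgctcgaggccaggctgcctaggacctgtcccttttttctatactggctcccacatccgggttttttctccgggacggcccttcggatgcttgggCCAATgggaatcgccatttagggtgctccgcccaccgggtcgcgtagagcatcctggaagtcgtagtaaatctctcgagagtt
SF3A2: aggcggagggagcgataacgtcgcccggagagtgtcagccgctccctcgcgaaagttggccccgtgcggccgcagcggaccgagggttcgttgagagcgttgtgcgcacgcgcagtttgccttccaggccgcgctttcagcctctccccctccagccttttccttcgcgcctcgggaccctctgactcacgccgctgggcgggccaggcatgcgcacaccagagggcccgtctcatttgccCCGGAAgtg
HNRNPLL holds both motifs, as does PRPF19, SNRPA holds CCAAT alone and SF3A2 holds CCGGAA alone. The letters thus do not separate the gene with the highest ratio from the genes with the lowest.

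Upstream sequences were found for 56 of the 61 members and for 15842 protein-coding genes in all. CCGGAA or its reverse complement TTCCGG occurred in 23 of the 56 members (41.1%) and in 19.3% of all the windows. SF3B6 had 4 matches, and SF3B2, SNRPB2 and SNRPC had 3 each. CCAAT or ATTGG occurred in 25 members (44.6%) and in 34.5% of all windows, the E-box CACGTG in 6 members (10.7%) and in 7.84% of all, and TATAAA or TTTATA in 6 members (10.7%) and in 9.23% of all. The palindromic NRF1 site, searched without mismatches, occurred in 0 members and in 1.48% of all windows. Both strands were searched, and a match is a description of the sequence, not a bound site. The median GC content was 61.6% for the members and 62.4% for all.

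The Sm proteins form a ring on the U1, U2, U4 and U5 snRNAs, while U6 carries a ring of LSm proteins. All 7 measured Sm genes had lower signals in PMA 3 days than in undifferentiated cells, against 57.5% of all genes. Their median log2 ratio was -0.72, the lowest of the 6 role groups with signals under the floor set to that floor. SNRPF had signals of 13514 in undifferentiated cells, 5945 at PMA 3 days and 7010 at PMA 8 days, so that it was 2.27-fold lower at 3 days and 1.93-fold lower at 8 days. SNRPD1 had 12771, 6358 and 7363 in the same order, 2.01-fold and 1.73-fold lower, and its dimmer probe set gave log2 ratios of -1.18 and -1.10. SNRPB went from 10465 to 6223 and then 8324. The undifferentiated array was the highest of the 3 for each of these genes.

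The other Sm genes followed with smaller differences. SNRPE had signals of 33192, 20125 and 23044, and SNRPG 31746, 19686 and 21168. SNRPD3 had 18771, 13564 and 16589. SNRPD2 was the least different, at 32368, 26063 and 26202, a log2 ratio of -0.31 at PMA 3 days and -0.30 at PMA 8 days. SNRPN, a tissue-restricted relative of SNRPB from an imprinted locus, was below the floor on all arrays by the only probe set listed for it alone, at 97.3, 83.9 and 58.1.

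Proteins of the U1 snRNP were read by 4 genes. SNRPA, the A protein that binds a loop of U1 RNA, had signals of 3999 in undifferentiated cells, 1554 at PMA 3 days and 1894 at PMA 8 days, 2.57-fold and 2.11-fold lower. SNRPC, the C protein that stabilises pairing with the intron start, had 8503, 7193 and 8894, so that its PMA 8 days signal was the highest of the 3. Among the genes of this group above the floor on all arrays, the A and C proteins, partners in the same particle, thus had the lowest and the highest ratio at PMA 8 days. PRPF39, a U1-associated protein, had nearly equal signals in undifferentiated cells and at PMA 3 days, 3267 and 3260, and 2468 at PMA 8 days. PRPF40B, which also joins U1, had 252 in undifferentiated cells and was below the floor in both PMA cultures, at least 1.68-fold lower in each.

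Proteins of the U2 snRNP had a median log2 ratio of -0.48 at PMA 3 days and -0.37 at PMA 8 days over 11 genes. Within the SF3A trimer the genes went apart by their brightest probe sets. SF3A2 had signals of 2079, 910 and 845, 2.29-fold lower at 3 days and 2.46-fold lower at 8 days, although its dimmer probe set gave only -0.80 and -0.49. SF3A3 had 3839, 1925 and 2221, 1.99-fold and 1.73-fold lower, just short of 2-fold at PMA 3 days. SF3A1 did not follow its partners by its brightest probe set, with signals of 4952, 4961 and 5147. Its 3 dimmer probe sets were all below 0, at -0.82 to -0.17 at PMA 3 days and -0.96 to -0.19 at PMA 8 days.

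The SF3B complex holds the branch point adenosine. SF3B1, its largest subunit and a gene often mutated in myelodysplastic syndromes, had signals of 33525, 30636 and 27844, log2 ratios of -0.13 and -0.27. SF3B3 had 3214, 2075 and 2183, with log2 ratios of -0.63 and -0.56, although its dimmer probe set was at 0.02 and 0.28. SF3B2, SF3B4, SF3B5 and SF3B6 lay between -0.50 and -0.24 at PMA 3 days and between -0.45 and -0.08 at PMA 8 days. SNRPA1 and SNRPB2, the U2-specific A′ and B″ proteins, were at -0.56 and -0.48 at 3 days. At 8 days SNRPA1 was at -0.15, with signals of 14909, 10087 and 13421 on the 3 arrays, while SNRPB2 stayed at -0.46, with 9678, 6931 and 7021.

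The tri-snRNP and the later PRPF proteins had the medians closest to 0, with a log2 ratio of -0.20 at PMA 3 days and -0.31 at PMA 8 days over 9 genes. PRPF19, the ubiquitin ligase at the centre of the complex that activates the spliceosome, was the exception. It had the lowest ratio at PMA 3 days among the members above the floor on both arrays. Its signals were 4525 in undifferentiated cells, 1612 at PMA 3 days and 1949 at PMA 8 days, 2.81-fold and 2.32-fold lower. PRPF8, the U5 scaffold around the catalytic RNA, had 5806, 4379 and 4405. PRPF3, PRPF6 and PRPF31, structural proteins of the tri-snRNP, lay between -0.20 and -0.10 at PMA 3 days. PRPF4 had 3784, 4029 and 4068, and PRPF18, which acts in the second step of splicing, had 2865, 3129 and 3172; both were slightly above their undifferentiated level on both PMA arrays, by no more than 0.15 log2 units, although a dimmer PRPF18 probe set went from 281 to below the floor on each, a log2 ratio of -0.91 or lower. PRPF38A and PRPF38B were at -0.54 and -0.45 at PMA 3 days and at -0.50 and -0.75 at PMA 8 days.

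Among SR genes 8 of 9 measured members lay below 0 at PMA 3 days and 9 of 9 at PMA 8 days, with medians of -0.47 and -0.44. The shares of all genes below 0 were 57.5% and 54.9%. SRSF6 had signals of 10571, 4852 and 4693, 2.18-fold and 2.25-fold lower, but its dimmer probe set gave log2 ratios of only -0.21 and -0.35. SRSF3, the smallest SR protein, had 31404, 16777 and 20476, log2 ratios of -0.90 and -0.62. SRSF8 had 7602, 4360 and 4380. SRSF1, the founding member of the family, had 29200, 19451 and 21470, with all 8 of its probe sets below 0 in both comparisons. SRSF4, SRSF5, SRSF7 and SRSF10 lay between -0.47 and -0.25 at PMA 3 days and between -0.52 and -0.34 at PMA 8 days. SRSF11 had 23676, 24398 and 17754 by its brightest probe set, a log2 ratio of 0.04 at PMA 3 days, but 2798, 1788 and 1559 by the next, a log2 ratio of -0.65. SRSF12 was below the floor on all arrays, with 119 as its highest signal.

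Of 19 hnRNP genes 18 lay below 0 in each comparison, against 57.5% and 54.9% of all genes. Their medians were -0.57 at PMA 3 days and -0.41 at PMA 8 days. HNRNPA0, which binds AU-rich elements of inflammatory mRNAs, had 7849, 3872 and 5296, 2.03-fold and 1.48-fold lower. HNRNPA3 had 10713, 5407 and 6210, 1.98-fold and 1.73-fold lower by its brightest probe set, and its dimmer ones gave -1.66 and -1.42 at PMA 3 days. HNRNPAB, HNRNPD (AUF1, a regulator of mRNA decay), HNRNPL and HNRNPA1 followed at -0.81, -0.78, -0.77 and -0.74. HNRNPUL1 was the lowest at PMA 8 days, with 10229, 6977 and 5211, 1.47-fold and 1.96-fold lower. HNRNPC, which shields introns from wrong splice sites, had 26388, 24757 and 24851, and HNRNPU, a nuclear scaffold protein, 40938, 35996 and 38964, within 0.19 log2 units of the undifferentiated level by the brightest probe sets. HNRNPA2B1, HNRNPDL, HNRNPF, HNRNPH1, HNRNPH3, HNRNPK, HNRNPM, HNRNPR and HNRNPUL2 lay between -0.67 and -0.41 at PMA 3 days.

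HNRNPLL was the single hnRNP gene above 0 and stood apart in both comparisons. It is known for repressing variable exons of the CD45 transcript in activated lymphocytes. Its brightest probe set had signals of 4796 in undifferentiated cells, 7079 at PMA 3 days and 8076 at PMA 8 days, 1.48-fold and 1.68-fold higher. All 4 of its probe sets were above 0 in both comparisons, between 0.41 and 1.14 at PMA 3 days and between 0.25 and 0.89 at PMA 8 days, where the lowest is a bound because that probe set was below the floor in undifferentiated cells. One of them was past 2-fold at PMA 3 days, with signals of 1316, 2900 and 2443. PTPRC, the gene of CD45, had 22479, 36930 and 34779.

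**Figure D2:**
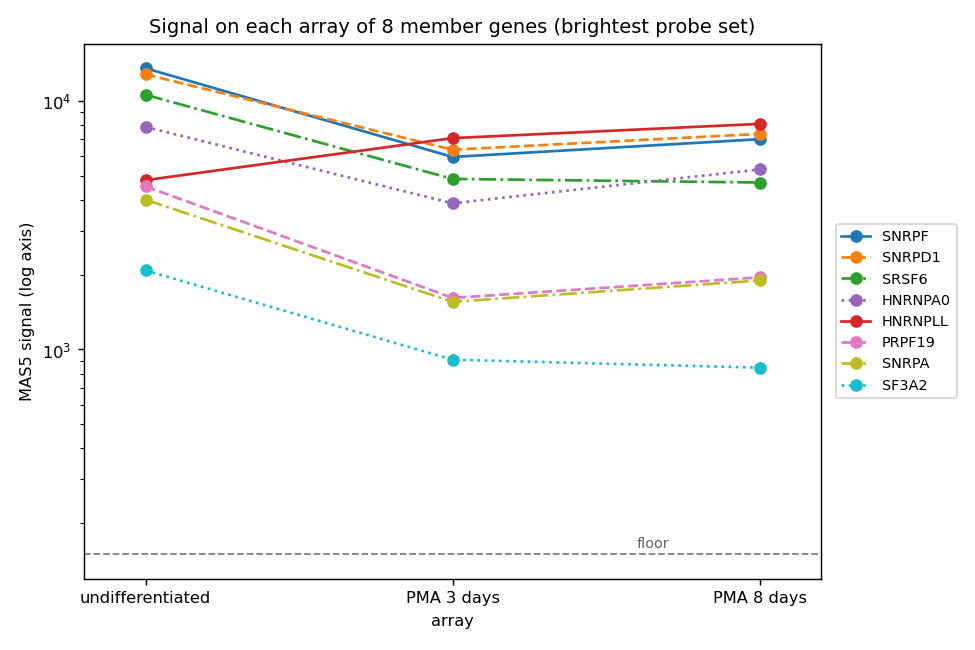
MAS5 signal on a log axis (vertical) on each of the 3 arrays (horizontal) for the 7 members lower by at least 2-fold at PMA 3 days and for HNRNPLL, by brightest probe set, 1 array per point. The 7 lines drop from undifferentiated to PMA 3 days, PRPF19 from 4525 to 1612, while HNRNPLL goes from 4796 to 8076. The dashed line is the floor of 149.8.

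Calls near the threshold depend on the probe set and on the centring. PRPF19, SNRPA and SNRPF were lower by 2-fold at PMA 3 days under the alternative floors and scalings, but each has only 1 single-gene probe set, so the choice of probe set could not be varied for them. They had log2 ratios of -1.80 to -1.37 for PRPF19, -1.68 to -1.24 for SNRPA and -1.50 to -1.07 for SNRPF. SF3A2 and SRSF6 lost the call, at both times, with the second-brightest probe set or the median over probe sets. HNRNPA0 lost it with these and with centring on the median of all genes, and SNRPD1 with centring alone. Scaling to the 27 poly-A labelling control probe sets, whose median difference was 0.31 log2 units upward on the PMA 3 days array, gave 18 members (30.5%) lower by 2-fold at PMA 3 days, where 18.7% of all genes were then lower and 7.42% higher. The median of all genes was then -0.40 and that of the members -0.81, so that the member median minus that of all genes was -0.41, against -0.38 without this scaling.

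Probe sets of the same gene often disagreed in size. Of 42 members with several informative probe sets, 30 had all of them below 0 at PMA 3 days, 2 had all above and 10 had some on either side; at PMA 8 days the counts were 31, 2 and 9. Of 175 member probe sets 159 were informative at PMA 3 days, and 140 of them lay below 0 (88.1%, against 57.8% of all single-gene probe sets). At 2-fold, 26 were lower, 16.4% against 10.5%, and 2 were higher against 9.73%. At PMA 8 days 142 of 158 lay below 0 (89.9% against 55.6%), 22 were lower by 2-fold (13.9% against 8.8%) and 2 higher (9.2% in the background). Between the PMA cultures 58 of 154 lay below 0 (37.7% against 46.5%), 0 were lower by 2-fold (0.952% in the background) and 1 was higher (1.32%). Several members had a probe set that differed far more than the brightest. PRPF38A had 7960, 5456 and 5644 by its brightest probe set but 3399, 607 and 696 by its dimmest, a log2 ratio of -2.49 at PMA 3 days. HNRNPU had 1697, 479 and 467 by one of its dimmer probe sets, a log2 ratio of -1.82 against -0.19 by the brightest. A dim SRSF3 probe set went from 721 to 163 and then 302, a log2 ratio of -2.14 at PMA 3 days. These examples do not stand for the list. By the median over its dimmer probe sets, 20 of 39 members had a lower ratio than by the brightest at PMA 3 days. That is 51.3%, against 52.1% of all genes, with median differences of -0.10 and -0.02. Only probe sets above the floor on all arrays were compared. PRPF38A was singled out here after its values were seen. Which exon, intron or end of the transcript each probe set reads was not tested.

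SRSF7 was the member with a probe set past 2-fold one way and another past 1.2-fold the other way at both times. By its brightest probe set it had 18074, 15235 and 13384, and by the next 4729, 3854 and 3309, both lower in PMA. By the third it had 2352 in undifferentiated cells, 4410 at PMA 3 days and 2292 at PMA 8 days, a log2 ratio of 0.91 followed by -0.04. By the dimmest it had 182, 406 and 434, log2 ratios of 1.16 and 1.26. The highest array thus differs between the probe sets of this gene. A dim SRSF3 probe set also went up at PMA 8 days, from below the floor (139 and 134) to 310, a log2 ratio of at least 1.05, while the 4 other informative ones lay below 0. HNRNPU had one probe set at 0.53 at PMA 3 days, with signals of 202, 291 and 184, beside 4 below 0.

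**Figure D3:**
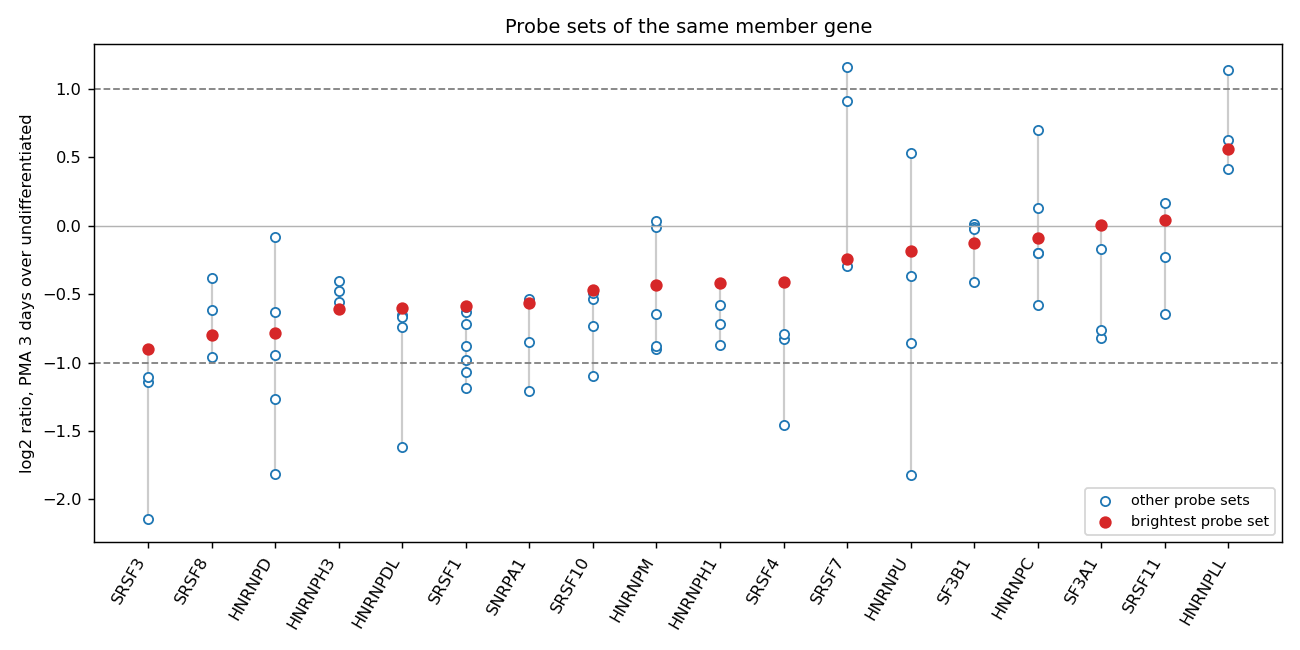
Log2 ratio in PMA 3 days over undifferentiated (vertical axis) of every informative probe set of the 18 members with at least 4 of them (horizontal axis), with the brightest filled red and the others open. Dashed lines mark 2-fold. SRSF7 spans -0.30 to 1.16 and HNRNPU -1.82 to 0.53, while the 8 probe sets of SRSF1 all lie below 0.

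The last comparison sets PMA 8 days against PMA 3 days. Most splicing genes had a slightly greater signal at PMA 8 days, with a median difference smaller than the SD of 0.25 between member probe sets. That SD describes single probe sets and is not the precision of the median. Of 58 measured members 45 lay above 0 (77.6%, against 54.7% of all genes), with a median log2 ratio of 0.12 against 0.04, and 0 were past 2-fold in either direction, where the backgrounds were 0.958% lower and 1.37% higher. At 1.5-fold 0 members were lower and 0 higher, against 4.76% and 7.18%. After centring on the median of all genes 20 of 58 lay below 0. All 7 Sm genes lay above 0 (median 0.21), led by SNRPB at 0.42, and 17 of 19 hnRNP genes did (median 0.17), led by HNRNPA0 at 0.45. SNRPA1 was at 0.41. SR genes were split, 4 above and 5 below (median -0.05), with SRSF3 at 0.29 and SRSF11 at -0.46. HNRNPUL1 (-0.42), PRPF39 (-0.40) and PRPF38B (-0.30) were the lowest after SRSF11. This comparison shares each of its arrays with one of the others, so its values are not a separate measurement of a return. The labelling controls also differed, with a median difference from the undifferentiated array of 0.31 log2 units at PMA 3 days and 0.02 at PMA 8 days. Scaled to them, 54 of 58 members lay above 0, with a median of 0.42 against 0.31 for all genes. The other 4 members lay below 0, as did 15.8% of all genes.

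Splicing genes outside the symbol rule were also mostly below 0. Of 124 measured genes in 5 further lists, 102 lay below 0 at PMA 3 days (82.3%, against 57.5% of all genes) with a median log2 ratio of -0.34, and 92 at PMA 8 days (74.2% against 54.9%) with a median of -0.28. At each time 4 were lower by 2-fold (3.23%, against 10.7% and 8.49% of all genes) and 2 higher (1.61%, against 10.4% and 9.83%). Among other U snRNP proteins 31 of 36 lay below 0 at PMA 3 days (median -0.39), and LSM7, of the ring on U6 RNA, had 14790, 6348 and 5331, 2.33-fold and 2.77-fold lower. Among catalytic and exon junction proteins 25 of 32 did (median -0.27), with XAB2 going from 336 to below the floor, at least 2.24-fold lower, and then to 280. Among snRNP assembly factors 14 of 16 did (median -0.21), with GEMIN4 of the SMN complex at 1180, 521 and 508, 2.27-fold and 2.32-fold lower. At PMA 8 days this list was near the background: 9 of 16 lay below 0 (56.25%, against 54.9% of all genes) and 7 above. Its median was then -0.10, against -0.07 for all genes. STRAP of the same list had 6509, 9186 and 11196, 1.41-fold and 1.72-fold higher. Among SR kinases and import factors 6 of 9 lay below 0 at PMA 3 days (median -0.38). SRPK1, which phosphorylates SR proteins in the cytoplasm, had 9144, 4595 and 6169, 1.99-fold lower at PMA 3 days, and the nuclear kinase CLK2 had 4366, 3080 and 2171, 2.01-fold lower at PMA 8 days.

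The last list holds regulators outside the SR and hnRNP families. Of 31 measured, 26 lay below 0 at PMA 3 days (median -0.45), against 57.5% of all genes. By 2-fold, 1 was lower (3.23%, against 10.7% of all genes) and 2 were higher (6.45% against 10.4%). QKI, an RNA-binding protein with a known part in monocyte to macrophage differentiation, had 13615 in undifferentiated cells, 35505 at PMA 3 days and 28862 at PMA 8 days, 2.61-fold and 2.12-fold higher. MBNL2, a muscleblind splicing factor, was below the floor in undifferentiated cells and had 1067 and 498 in the PMA cultures, at least 7.12-fold and at least 3.33-fold higher. It was also the only gene of these lists past 2-fold between the PMA cultures, 2.14-fold lower at PMA 8 days. MATR3, a nuclear matrix protein, had 484, 236 and 219, 2.06-fold and 2.21-fold lower.

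Proliferation genes had lower ratios than splicing genes in both PMA cultures. All 18 lay below 0 in both PMA cultures (57.5% and 54.9% of all genes did), with medians of -1.52 at PMA 3 days and -0.63 at PMA 8 days. Lower by 2-fold were 15 of them at PMA 3 days (83.3%, against 10.7% of all genes). At PMA 8 days 3 were (16.7% against 8.49%). MKI67 had 4819, 1581 and 2739, CCNB1 10133, 2921 and 7376, and MCM7 8228, 1976 and 3111. In PMA 8 days over PMA 3 days 17 of 18 lay above 0 (94.4%, against 54.7% of all genes), with a median of 0.62. The part of this shift in the splicing gene differences was not tested.

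**Figure D4:**
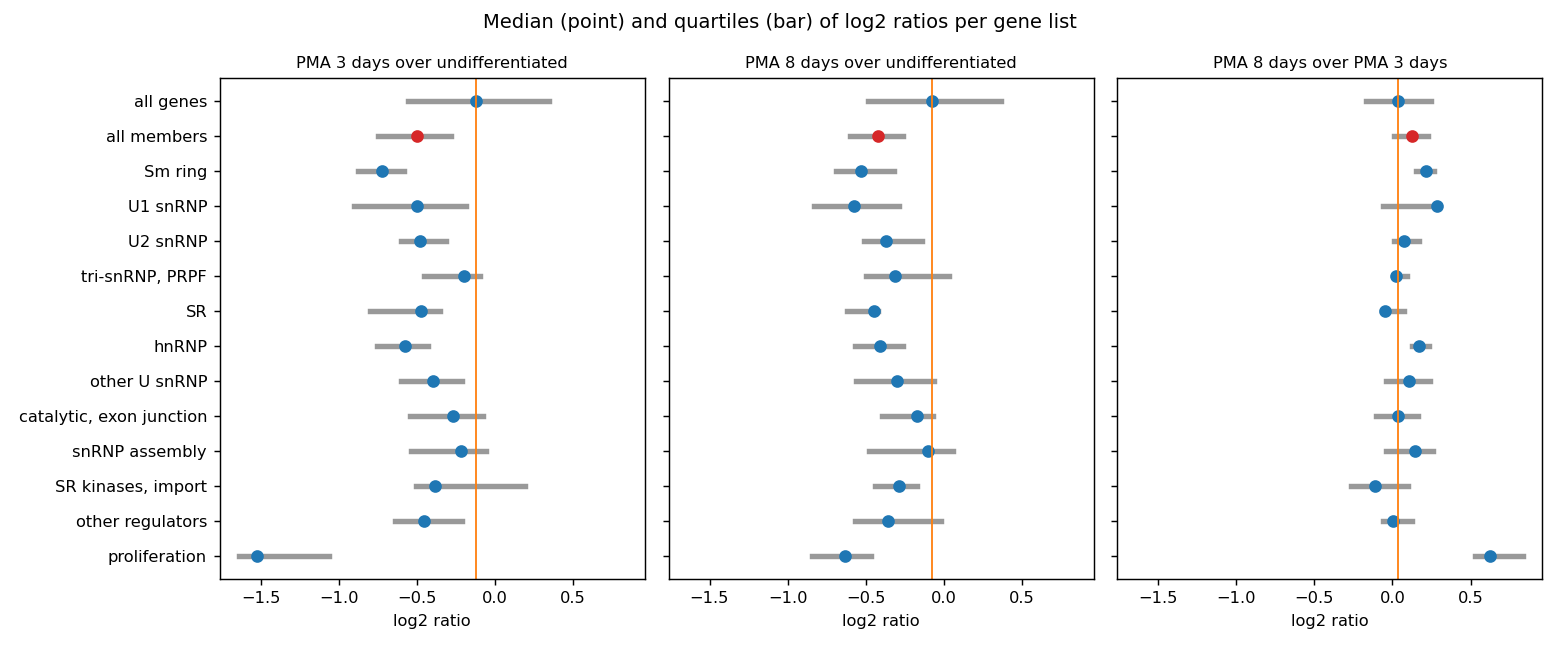
Median (point) and quartiles (bar) of log2 ratios on one shared horizontal axis for all genes, all members (red), the 6 role groups, the 5 other splicing lists and proliferation genes (vertical axis), in the 3 comparisons. The orange line is the median of all genes. The member median lies at -0.50, -0.42 and 0.12 from left to right, and that of proliferation genes at -1.52, -0.63 and 0.62.

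Each array had been scaled to a trimmed mean signal of 1000, and 51.4%, 48.5% and 50.1% of probe sets lay above the floor. The labelling controls differed between the arrays, by a median of 0.31 log2 units at PMA 3 days and 0.02 at PMA 8 days against undifferentiated cells. The ratio of 3′ to 5′ signal, a sign of RNA decay, was 1.36 to 1.49 for actin and 1.10 to 1.16 for GAPDH. Of 7 markers of the monocytic line 6 were above the floor on all arrays. The exception was SPI1, at 25 in undifferentiated cells and 162 and 175 in PMA, and the summed level of the 7 was 167842, 234339 and 196767. LYZ went against that sum, at 62439, 36591 and 23243, 1.71-fold and 2.69-fold lower, while CSF1R had 1469, 8210 and 6801. Some markers of other cell types were above the floor on at least 1 array. They were 2 of 5 lymphoid, 1 of 1 erythroid, 1 of 3 epithelial, and 3 of 5 fibroblast and endothelial markers. Several of these were near the floor: NCAM1 had 152, 160 and 144, KRT8 194, 131 and 199, and DCN 147, 159 and 228. COL1A2 was above the floor in undifferentiated cells alone, at 157. Of 5 lymphoid markers only CD79A was above the floor on all arrays, at 348 to 492, and CD3E, CD3D and MS4A1 were below it on all. HBB was at 382 to 442. Of 3 epithelial markers EPCAM and CDH1 were below the floor on all arrays, and of 5 fibroblast and endothelial markers COL3A1 and VWF were. PECAM1, which monocytes also express, made up most of the summed level of that last list, 19092 to 21718. The 21 informative probe sets listed with several genes had median log2 ratios of -0.47 at PMA 3 days and -0.32 at PMA 8 days, with 1 lower by 2-fold and 0 higher at each time. Among all single-gene probe sets 10.5% and 8.8% were lower by 2-fold at these times, and 9.73% and 9.2% higher.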

How the data were processed

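RNA of 3 THP-1 cultures, 1 per condition, was measured on 3 arrays. The deposited intensity values were made with MAS5, per the submitters' processing notes; neither its version nor its settings are given in the sources used here. The equal trimmed means, with 2% left out at either end, are read from the values. Of 54675 probe sets 62 controls were set aside. Each gene was read by its probe set with the highest mean signal, genes were named from the platform table, and the RefSeq table of GRCh38.p14 had the same symbol for all 61 members.

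Log2 ratios were taken after setting signals under the floor (149.8, percentile 50 of all values) to that floor. A comparison used the genes that exceeded the floor on 1 or both of its arrays, and "at least" marks ratios with an array at the floor. Higher and lower calls are at 2-fold. The steps were tested on simulated data, with changes well past 2-fold in genes far above the floor and noise below the spread between probe sets. Differences as small as the member medians were not simulated. The array number, 1 per condition, limits the precision: no p-values are given.

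Genes named were those past 2-fold, the 5 most extreme per direction and comparison, the extremes of each role group, members with probe sets in opposite directions, and up to 3 per other list; further members were named to account for all of them. The members and lists were chosen with earlier results of these data known. Alternatives for the floor, scaling, probe set and threshold are in the closing section. Python 3.11.15, numpy 2.4.6, pandas 2.3.3 and matplotlib 3.10.9 were used.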

Additional observations from a re-analysis of the deposited data

How the results depend on the processing

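No paired analysis was possible because each condition has 1 array. The count of members lower by 2-fold at PMA 3 days was 7 as reported, 18 with poly-A control scaling and 24 at a 1.5-fold threshold, and the count at PMA 8 days was 4 as reported and 15 at 1.5-fold. The count of members higher was 0 as reported at both times, 1 at PMA 3 days with the second-brightest probe set (HNRNPLL) and 1 at PMA 8 days at 1.5-fold (also HNRNPLL). Under these last 2 settings 9.70% and 17.6% of all genes were higher. The median log2 ratio of members at PMA 3 days was -0.50 as reported, -0.81 with poly-A control scaling and -0.38 after centring on the median of all genes. At PMA 8 days it was -0.42 as reported and -0.55 with the brightest probe set without an s or x suffix, for which 44 members were measured. In PMA 8 days over PMA 3 days it was 0.12 as reported, with 13 of 58 members below 0 (45.3% of all genes), and 0.42 with poly-A control scaling. With the brightest probe set without an s or x suffix it was 0.05, against 0.02 for all genes, with 13 of 43 members below 0 (46.9% of all genes). With the second-brightest probe set it was 0.08 against 0.03, with 15 of 39 below 0 (47.0% of all genes). The causes of these differences were not tested, apart from the lower threshold and the centring, which act by construction. Further settings were floors at the percentiles 25 and 60, no floor, quantile normalization and the median over probe sets. Another kept only genes above the floor on all 3 arrays (chosen after seeing the data). Under these and the settings above, the other counts lay within 1.5 times and the other medians within 0.1 of the reported ones. Between the PMA cultures 0.1 is nearly the whole reported median of 0.12. The shares moved more with the probe set without an s or x suffix: 9 of 44 members (20.5%, against 11.6% of all genes) were lower at PMA 3 days and 6 of 44 (13.6%, against 9.57%) at PMA 8 days. After centring, which puts 50% of all genes below 0 by construction, 51 of 59 members lay below 0 at PMA 3 days and 51 of 59 at PMA 8 days. For 26 named members, 688 of 748 alternative log2 ratios lay within 1 probe set SD of the reported one, and 60 lay further away. Much of this was fixed in advance. These members were above the floor on all arrays, so the floor settings could not move them, and centring shifted all by less than that SD. With the second-brightest probe set 15 moved further and 40 did not. The counts were 10 and 59 without an s or x suffix, 9 and 69 with the median over probe sets, and 26 and 52 with poly-A control scaling. A sign change occurred in 42 of the 748, all of them ratios that were not called. Probe sets near the floor carry the least signal over background, so their ratios are the least certain.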
